A study of Mus musculus with 33 samples.

Results

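Described here are 38 genes of ovarian macrophages and antigen presentation: leukocyte and macrophage lineage genes, complement C1q, Fc receptors with their adaptors, scavenger receptors, lysosomal and phagocytic genes, chemokine receptors with integrins, and MHC class II. They were chosen by symbol from a list, and all 38 were found among the 54347 gene identifiers measured. The group called scavenger receptors below holds Mrc1, Cd163, Cd14, Siglec1, Folr2 and Timd4, and so also lectin, pattern and other receptors. The group called lysosomal holds Lyz2, Cd68, Ctss, Lgals3, Gpnmb, Cybb and Mpeg1, and so also phagocytic and killing genes. The members were followed in 33 libraries of mouse ovary RNA, in 9 groups of 3 experiments that vary follicle-stimulating hormone (FSH) and the stage of the estrous cycle. Fshb encodes the beta subunit of FSH, the pituitary hormone that drives follicle growth.

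Experiment 1 held 3 libraries each of wild type (WT), heterozygous Fshb(+/-) and homozygous Fshb(-/-) mice. Experiment 2 set 4 libraries of Fshb(-/-) mice beside 4 with the label Fshb(-/-) HFSHB, the same knockout with a human FSHB transgene, called the rescue below. Experiment 3 covered DE, PE and E (taken as diestrus, proestrus and estrus) with 4 WT libraries a stage, and 4 libraries with the stage label KO (anestrus), whose genotype field also reads WT. That last group is called the anestrus KO. No stage was given in experiments 1 and 2. The sources used here give no strain, age, promoter of the transgene or pooling of ovaries. The labels do not say that replicates are separate animals, so p-values measure the spread between libraries, which may be technical.

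Depth was 13.6 to 16.9 M counts per library in experiment 1, 19.6 to 23.7 M in experiment 2 and 10.1 to 15.9 M in experiment 3. Levels are given as counts per 1 M counts of the library (CPM), scaled within each experiment, and are not compared between experiments. Ovarian markers were present in all 33 libraries: Inha, the inhibin alpha subunit of granulosa cells, ran from 613 to 2870 CPM, and Zp3, a zona pellucida gene of oocytes, from 11.5 to 118 CPM. Counts of Fshb were not lowest where the labels say Fshb(-/-). In experiment 1 they were 0 to 1 per library in WT, 43 to 106 in heterozygotes and 68 to 82 in Fshb(-/-). They were 119 to 184 in the Fshb(-/-) libraries of experiment 2, 221 to 431 in the rescue and 90 to 114 in the anestrus KO. In DE, PE and E they were 60 to 198, 0 to 51 and 0 to 170. What these counts mean for the genotypes was not tested, and every group name below is that of the label.

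Macrophages are abundant leukocytes of the ovary and are known for clearing dying cells of atretic follicles and regressing corpora lutea. They depend on the receptor CSF1R for survival, take up cargo through scavenger, Fc and lectin receptors, and degrade it in lysosomes. Peptides from that cargo are loaded onto MHC class II molecules, whose assembly needs the invariant chain CD74 and whose transcription needs the coactivator CIITA.

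Promoter sequences are shown for 7 members that stand for the lysosomal group, for Mrc1, which moved the other way in the rescue, and for MHC class II. Each run is the RefSeq reference (GRCm38.p6) from 180 bases before to 20 bases after the annotated start, 5′ to 3′ on the strand of the gene. Capitals mark matches on either strand to the core site of the macrophage factor PU.1 (AGGAAGT), the AP-1 site (TGANTCA), the M-box of MITF-type factors (CATGTGA) or the class II Y box (CTGATTGG).
Gpnmb (chr6:49036338-49036537, plus strand): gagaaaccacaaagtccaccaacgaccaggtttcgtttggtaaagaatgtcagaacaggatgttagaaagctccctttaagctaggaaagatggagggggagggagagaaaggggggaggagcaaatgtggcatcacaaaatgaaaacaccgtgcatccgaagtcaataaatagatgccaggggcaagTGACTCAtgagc
Cd68 (chr11:69666151-69666350, minus strand): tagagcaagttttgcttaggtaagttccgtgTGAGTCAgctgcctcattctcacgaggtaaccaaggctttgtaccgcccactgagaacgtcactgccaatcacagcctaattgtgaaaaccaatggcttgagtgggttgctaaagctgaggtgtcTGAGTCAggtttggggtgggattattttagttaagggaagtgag
Ctss (chr3:95526606-95526805, plus strand): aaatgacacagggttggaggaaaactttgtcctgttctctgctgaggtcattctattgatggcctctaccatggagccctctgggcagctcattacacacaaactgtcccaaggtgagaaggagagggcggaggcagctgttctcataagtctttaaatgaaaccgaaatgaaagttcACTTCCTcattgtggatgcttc
Lyz2 (chr10:117282253-117282452, minus strand): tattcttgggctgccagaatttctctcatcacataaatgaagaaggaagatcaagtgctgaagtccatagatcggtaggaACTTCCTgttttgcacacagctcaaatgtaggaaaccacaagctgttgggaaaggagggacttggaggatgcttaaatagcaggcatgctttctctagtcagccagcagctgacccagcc
Mrc1 (chr2:14229234-14229433, plus strand): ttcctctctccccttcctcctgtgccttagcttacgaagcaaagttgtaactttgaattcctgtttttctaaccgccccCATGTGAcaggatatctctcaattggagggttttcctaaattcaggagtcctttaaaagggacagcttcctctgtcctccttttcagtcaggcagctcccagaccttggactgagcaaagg
H2-Aa (chr17:34287804-34288003, minus strand): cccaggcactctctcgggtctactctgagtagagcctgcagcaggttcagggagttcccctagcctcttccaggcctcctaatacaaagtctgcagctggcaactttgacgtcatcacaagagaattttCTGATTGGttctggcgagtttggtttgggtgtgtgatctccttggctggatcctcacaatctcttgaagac
H2-Eb1 (chr17:34305687-34305886, plus strand): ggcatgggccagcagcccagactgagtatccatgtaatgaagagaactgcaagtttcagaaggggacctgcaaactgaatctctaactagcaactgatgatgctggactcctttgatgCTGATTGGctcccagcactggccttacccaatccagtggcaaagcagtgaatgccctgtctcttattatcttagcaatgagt

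In the full windows of 250 bases before to 50 after the start, 34 promoters of 29 member genes could be searched. The PU.1 core stood in 10 of these 34 promoters (29.4%), against 9.35% of all 32851 promoters, and the AP-1 site in 7 (20.6%), against 7.81%. The M-box was present in 2 (5.88%, against 3.99%), as was the Y box (5.88%, against 4.1%), and the E-box CACGTG in 0 of 34, against 7.15%. In the sequences shown, Gpnmb and Cd68 held AP-1 matches, Ctss and Lyz2 a PU.1 match each, Mrc1 an M-box, and both class II genes a Y box. In the full windows, Mrc1 also held a PU.1 match and Ctss an M-box, outside the sequences shown, so both genes held the same motifs. Of the lysosomal genes not shown, Cybb held an AP-1 match, and Lgals3 and Mpeg1 held none of these motifs. These matches describe letters in a window, and binding was not tested.

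Scaled to exon length, Lyz2, the myeloid lysozyme, and Cd74 were the 2 highest members in all 9 groups. In WT, Cd74 stood at 146 ± 17.6 CPM per kilobase and Lyz2 at 145 ± 54 (SD, n = 3), a difference within their spread. In the Fshb(-/-) libraries of experiment 1, Lyz2 was at 57.1 ± 24.5 CPM per kilobase and Cd74 at 131 ± 11.3. Lyz2 led in the rescue, at 202 ± 83.5 against 119 ± 11.6 CPM per kilobase (SD, n = 4). On GRCm38, the members that lead the changes below are Gpnmb (chr6:49036546-49070929, plus strand), Lgals3 (chr14:47367751-47386160, plus strand), Clec7a (chr6:129461591-129472779, minus strand) and Mrc1 (chr2:14229392-14332057, plus strand); whole genes are counted. Timd4, a phosphatidylserine receptor of resident macrophages, was the lowest member per kilobase in every group.

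**Figure D1:**
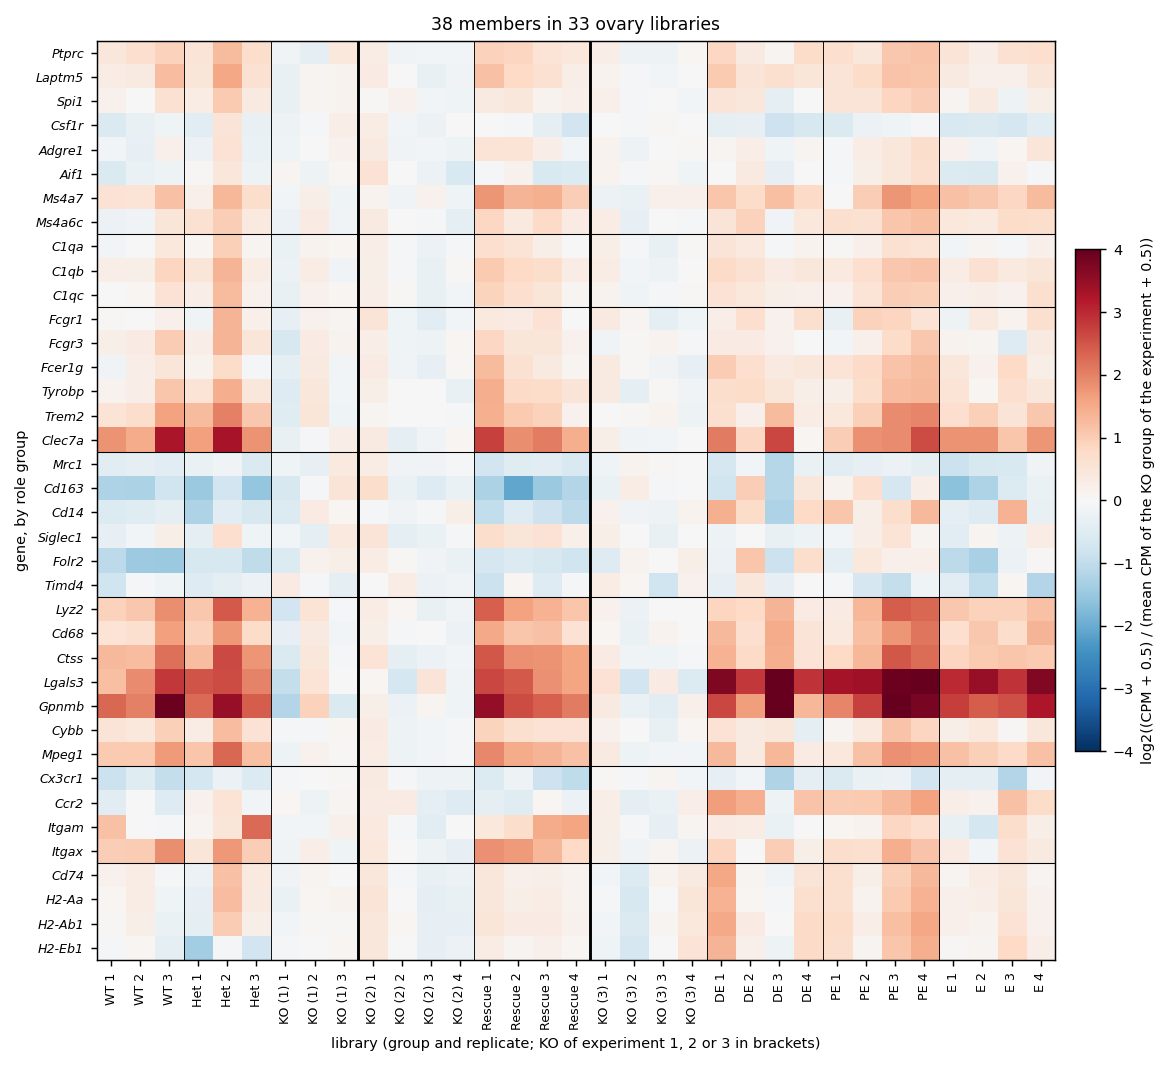
CPM of the 38 members (vertical, by role group) in 33 libraries (horizontal), as log2 of CPM plus 0.5 over the mean CPM plus 0.5 of the KO group of the same experiment, with colours limited at the ends of the scale. The lysosomal genes and Clec7a are above the KO mean in WT, Het, rescue and most cycling libraries, while Mrc1, Cd163 and Folr2 are below it in the rescue.

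The rescue libraries held more transcript of lysosomal and phagocytic genes than the libraries labelled Fshb(-/-), and less of several scavenger receptors. Of 38 members tested, 19 were higher and 5 lower (63.2%), where 31.9% of all 16871 genes tested passed (15.8% higher and 16.2% lower) at an adjusted p under 0.05 (edgeR quasi-likelihood test, Benjamini-Hochberg). The median log2 fold change of the members was 0.56, against 0 over all genes. In whole ovary, a change in the number of macrophages and in RNA per macrophage cannot be told apart.

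All 7 lysosomal and phagocytic genes rose in the rescue, with a median of 1.71 on the log2 scale. Gpnmb, a glycoprotein of lysosome-rich macrophages, was at 15.7, 11.1, 14.3 and 11.5 CPM in the 4 Fshb(-/-) libraries and at 156, 82.4, 70.7 and 57.2 CPM in the rescue. This was 6.95-fold higher (log2 2.80 ± 0.34, SE, adjusted p = 0.00092). Lgals3, which encodes the lectin galectin-3, was at 7.68, 4.26, 10.4 and 6.42 CPM without the transgene and at 49, 41.6, 26.9 and 22.4 CPM with it, 4.86-fold higher. For each of the 7 genes the lowest rescue library exceeded the highest Fshb(-/-) library, as it did for 16.8% of all genes. Ctss, the protease cathepsin S that trims the invariant chain, was 3.96-fold higher, at 103 ± 31.3 against 26.2 ± 8.12 CPM (SD, n = 4). Lyz2 stood at 265 ± 110 against 80.9 ± 14.8 CPM, 3.28-fold higher. Mpeg1, a pore-forming protein of phagosomes, was 2.86-fold higher, and Cd68, a lysosomal glycoprotein used to stain macrophages, 2.24-fold higher, at 26.8 ± 6.98 CPM. Cybb, the catalytic subunit of the phagocyte NADPH oxidase, had the smallest rise of the 7, 1.61-fold.

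Of the 6 genes grouped as Fc receptors and adaptors, which include Trem2 and Clec7a, 4 rose and none fell. Those that rose were Fcgr3, Tyrobp, Trem2 and Clec7a, while Fcgr1 and Fcer1g did not pass. Clec7a, the beta-glucan receptor dectin-1, was at 7.38, 4.18, 5.09 and 6.08 CPM in Fshb(-/-) and at 40.5, 21.8, 25 and 16.5 CPM in the rescue, 4.58-fold higher (log2 2.20 ± 0.30, adjusted p = 0.00112), with no overlap. The subunits of complement C1q, made by tissue macrophages, rose in 2 of 3 cases, while C1qa was at 41.6 ± 8.3 against 31.7 ± 4.63 CPM (adjusted p = 0.0846).

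Lineage genes were divided: 4 of 8 rose and none fell. Ptprc, the pan-leukocyte phosphatase CD45, was at 15.6, 11.3, 11.7 and 11.7 CPM in Fshb(-/-) and at 24.4, 23, 18.8 and 16.9 CPM in the rescue, 1.66-fold higher (adjusted p = 0.00559). Ms4a7, a tetraspan gene of tissue macrophages, was 2.83-fold higher. The groups did not overlap for either gene. Csf1r, the receptor for CSF1 and IL-34, was at 48 ± 10.9 CPM in the rescue and 58.1 ± 9.48 in Fshb(-/-) (adjusted p = 0.279). Adgre1, which encodes F4/80, was at 22.2 ± 4.72 and 17.4 ± 3.39 CPM (adjusted p = 0.168), and for both genes the groups overlapped.

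Of 6 scavenger receptors, 4 were lower and none higher. Mrc1, the mannose receptor CD206, was at 63.4, 46.1, 46.2 and 49 CPM in Fshb(-/-) and at 29.6, 36.8, 38.2 and 33.4 CPM in the rescue, 1.48-fold lower (log2 -0.57 ± 0.12, adjusted p = 0.00718). Cd14, the lipopolysaccharide co-receptor, was 1.86-fold lower, at 4.5 ± 0.832 against 8.39 ± 1.09 CPM. Neither gene overlapped between groups, but the share of all genes that were lower without overlap was not counted. Cd163, the haemoglobin-haptoglobin receptor, and Folr2, the folate receptor of resident macrophages, were 3.34-fold and 1.82-fold lower; both were singled out after their values were seen. Siglec1, the sialoadhesin of resident macrophages, also chosen after its values were seen, was at 15.7 ± 2.24 CPM in the rescue against 10.9 ± 3.28 with overlapping groups (adjusted p = 0.0737), and passed as higher with DESeq2.

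Among chemokine receptors and integrins, Itgax (CD11c) was 3.04-fold higher. Cx3cr1, the fractalkine receptor, also singled out after its values were seen, was 1.54-fold lower with overlapping groups (adjusted p = 0.0451). Ccr2, the receptor of inflammatory monocytes, was at 9.22 ± 1.63 against 10.9 ± 3.48 CPM (adjusted p = 0.446). None of the 4 MHC class II genes passed: Cd74 was at 199 ± 19.5 CPM in the rescue against 166 ± 40.8 and H2-Ab1 at 76.6 ± 7.17 against 60.7 ± 16.6. This rested on 1 library. Without Fshb(-/-) replicate 1, where the class II sum was highest, all 4 passed as higher in the rescue (edgeR adjusted p = 0.012 for Cd74 and 0.0192 for H2-Ab1). With each of the 8 libraries left out in turn, 17 of the 24 calls were made every time. A luteal list of 12 genes summed to 10600 to 31600 CPM in the rescue against 4290 to 5340 in Fshb(-/-), with 10 of 12 genes higher. Lists of other cell types moved as well: 8 of 8 endothelial and 5 of 5 erythrocyte genes were higher, and 10 of 10 oocyte genes and 5 of 8 genes of theca and interstitium were lower (1 higher). Of 11 granulosa genes, 6 were higher and 2 lower. The endothelial sum was 500 to 751 CPM in the rescue against 365 to 393, and the oocyte sum 317 to 469 against 682 to 1060. The part of these lists in the members' results was not tested.

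**Figure D2:**
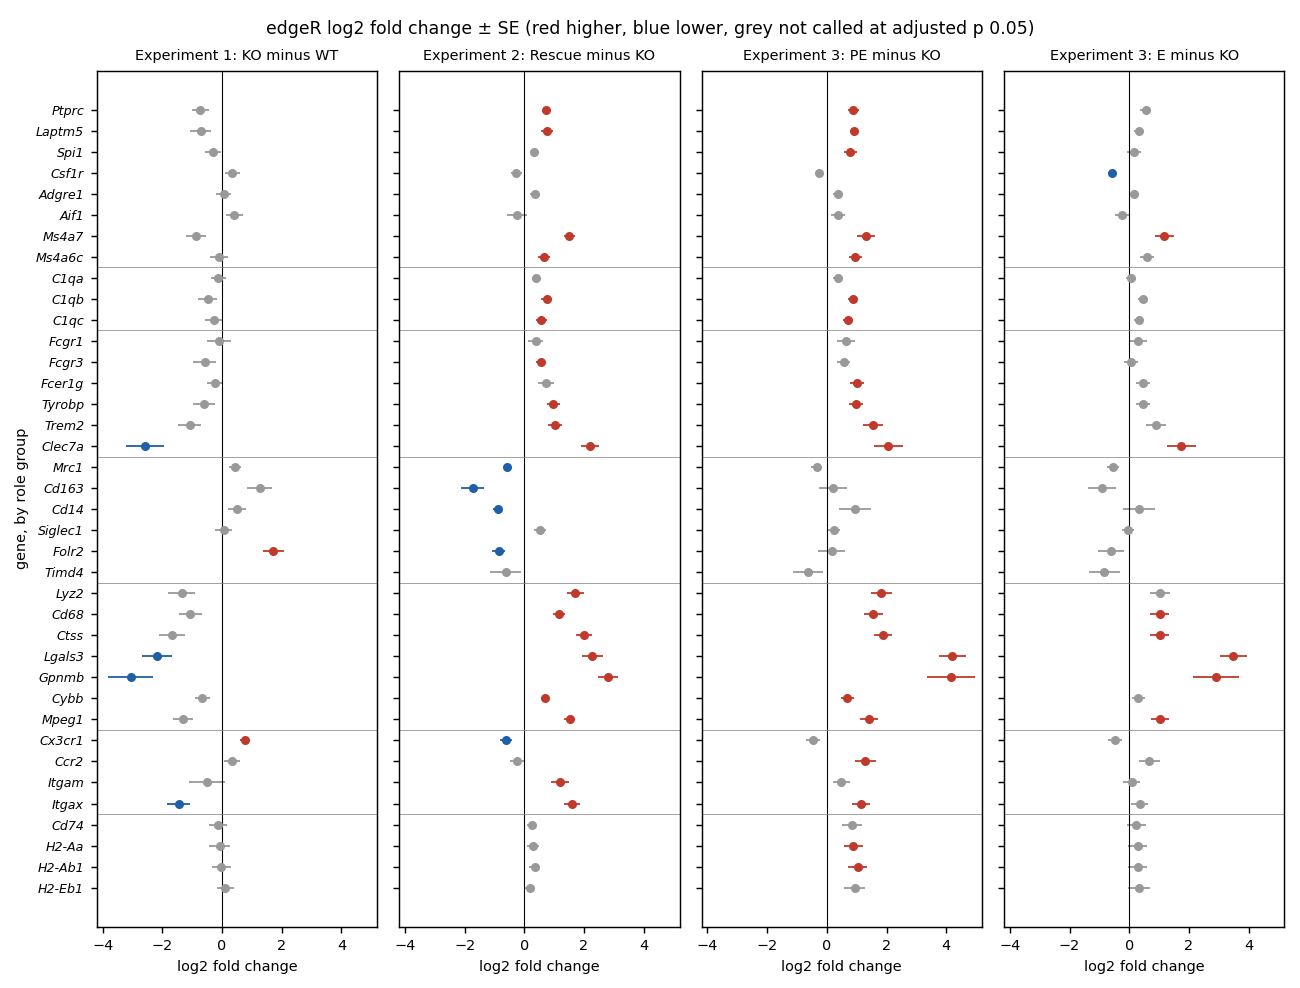
edgeR log2 fold change with its SE (bars) of each member (vertical, by role group) in 4 comparisons: KO minus WT, rescue minus KO, PE minus KO and E minus KO. The 7 lysosomal genes lie right of 0 in rescue minus KO and PE minus KO and left of 0 in KO minus WT.

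In experiment 1 the libraries labelled Fshb(-/-) held less of some lysosomal transcripts than WT, and more Folr2 and Cx3cr1. Of 37 members tested, 2 were higher and 4 lower (16.2%), against 7.87% of 17223 genes (4.53% higher and 3.34% lower); Timd4 was too low to test. The members' median log2 difference was -0.26, and that of all genes -0.01. Of other cell types, 9 of 10 oocyte genes were higher in Fshb(-/-), and 5 of 8 endothelial, 4 of 11 granulosa and 2 of 12 luteal genes lower. The luteal sum was 4240, 5060 and 5080 CPM in Fshb(-/-) against 21200, 18300 and 7380 in WT, and the oocyte sum 667 to 839 against 352 to 431 CPM; their part in the members' results was not tested.

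Gpnmb was at 82.2, 68.6 and 259 CPM in WT and at 6.97, 31.6 and 10.9 CPM in Fshb(-/-), 8.35-fold lower (log2 -3.06 ± 0.76, adjusted p = 0.0496). Lgals3 was at 25.5, 41.6 and 80.2 CPM in WT and at 5.39, 16.1 and 10.9 CPM in Fshb(-/-), 4.56-fold lower (adjusted p = 0.0378). WT replicate 3 was the highest library for both, and neither gene overlapped between genotypes. Clec7a and Itgax were 5.98-fold and 2.74-fold lower. The other 5 lysosomal genes also had lower values in each Fshb(-/-) library than in any WT library, as did 17% of all genes, but did not pass; Cd68 was at 21.3 ± 5.71 against 44.3 ± 20.5 CPM (SD, n = 3, adjusted p = 0.13). The 6 calls fell to 0 without WT replicate 3 or without Fshb(-/-) replicate 3, and to 1 or 2 without any other library.

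Folr2 was at 1.15, 0.741 and 0.713 CPM in WT and at 1.82, 3.3 and 3.5 CPM in Fshb(-/-), 3.28-fold higher (adjusted p = 0.0231). Cx3cr1 was at 11.8, 15.3 and 11 CPM in WT and at 21.1, 21.6 and 22.7 CPM in Fshb(-/-), 1.72-fold higher (adjusted p = 0.0263). Both ranges were separate, but the share of all genes that were higher without overlap was not counted. The lineage genes did not pass, with Csf1r at 60.6 ± 10.8 CPM in Fshb(-/-) against 47.9 ± 6.6 in WT, Adgre1 at 14 ± 1.6 against 13.5 ± 2.63 and Ptprc at 7.52 ± 2.38 against 12.5 ± 2.15 (adjusted p = 0.428, 0.93 and 0.143). C1qa stood at 50.9 ± 7.53 against 55.4 ± 11.1 CPM and Mrc1 at 37.9 ± 10.7 against 28.2 ± 1.02 (adjusted p = 0.812 and 0.204). MHC class II did not pass either: H2-Ab1 was at 79.6 ± 5.36 CPM against 80.6 ± 13.8 and Cd74 at 221 ± 19 against 245 ± 29.6. Ccr2 was at 4.93 ± 0.661 against 3.91 ± 0.906 CPM (adjusted p = 0.459).

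No member passed between heterozygotes and WT, where 0.0871% of all genes did: edgeR and DESeq2 both called 0 of 37. At an unadjusted p under 0.05 by edgeR there were 0 members, against 1783 of 17223 genes. Ptprc, Csf1r, Adgre1, C1qa, Cd68, Mrc1, Ccr2, Cd74 and H2-Ab1, the 9 genes given in every comparison, differed by 0.11 to 0.58 on the log2 scale. Het replicate 2 was the highest of the 9 libraries of experiment 1 for 27 of the 38 members. Without it, 7 of these 9 genes, all but Mrc1 and Ccr2, had differences below 0. The ratio of H2-Eb1 to H2-Aa was 0.438 to 0.502 in the heterozygotes and 0.795 to 1.21 in the other 30 libraries, and strain is not given in the sources used here.

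Against the heterozygotes, the Fshb(-/-) libraries had 8 members lower and 1 higher of 37 (24.3%, against 17% of all genes, 9.1% higher and 7.9% lower). The Fshb(-/-) libraries are those compared with WT above. Of the lysosomal group, 5 of 7 were lower: Gpnmb 7.33-fold, Lgals3 5.48-fold, Ctss 4.03-fold, Lyz2 3.45-fold and Mpeg1 3.15-fold. Clec7a, Itgax and Trem2, a lipid receptor, were 6.21-fold, 2.39-fold and 3.02-fold lower, and Cd163 was 2.74-fold higher (adjusted p = 0.0408). The 9 genes given throughout differed by -1.21 to 0.32 on the log2 scale, with adjusted p from 0.0533. The 9 calls fell to 1 without Fshb(-/-) replicate 3, to 2 without Fshb(-/-) replicate 1 and to 5 without Het replicate 3. Without Het replicate 2, 6 members passed. Trem2, Clec7a, Lyz2, Gpnmb and Itgax were then lost, and Cx3cr1 and H2-Eb1 gained. Of the 9 calls, 0 were made in every run with 1 library left out. Of other cell types, 10 of 10 oocyte genes were higher, and 6 of 8 endothelial and 5 of 12 luteal genes lower. Of 11 granulosa genes, 3 were higher and 3 lower. The part of these lists was not tested.

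**Figure D3:**
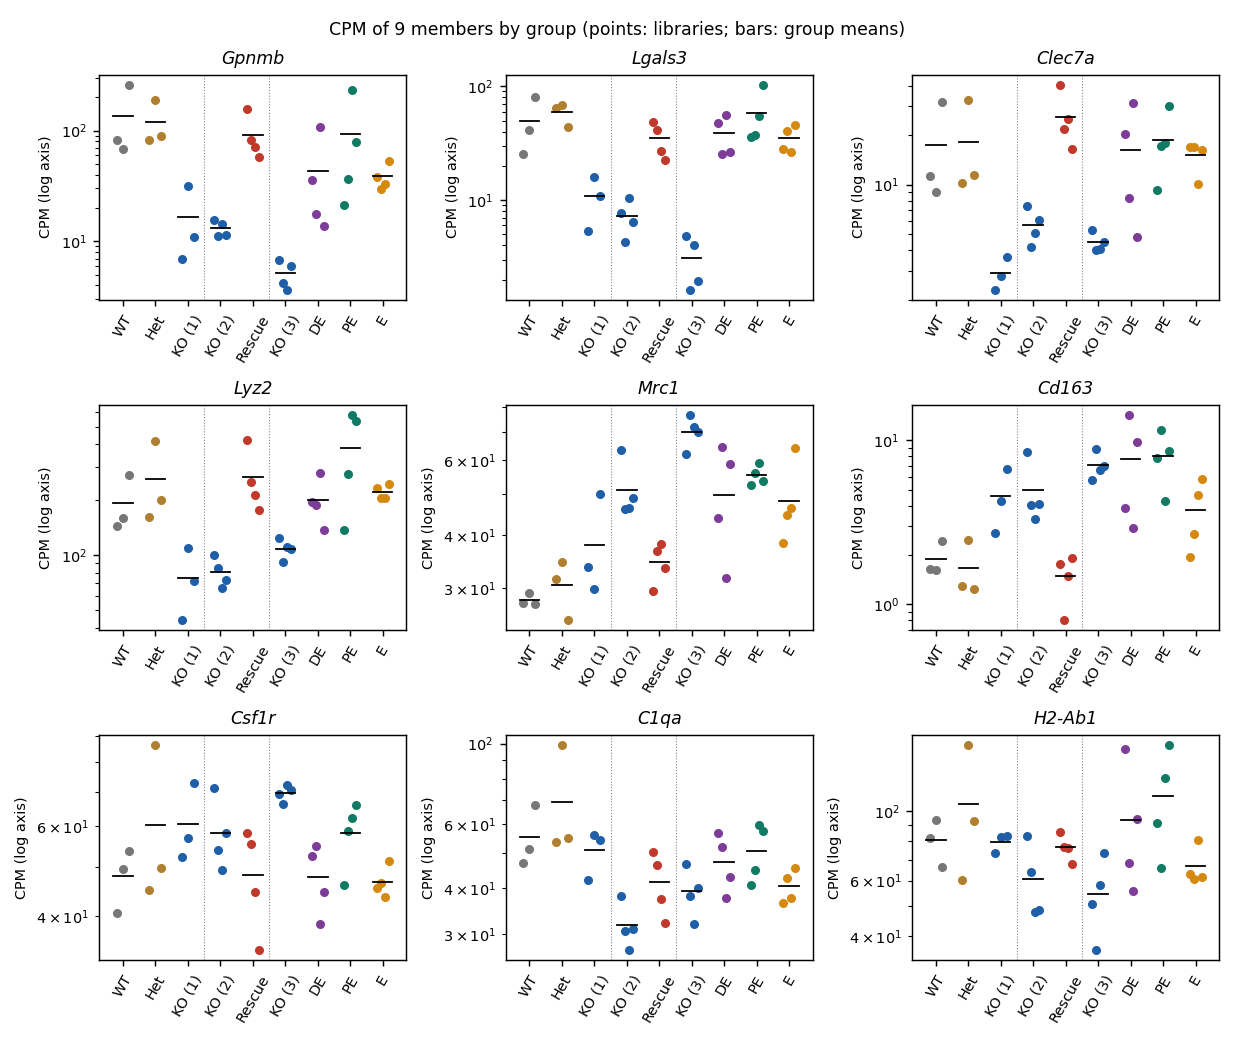
CPM on log axes of 9 members in the 9 groups (points are libraries). For Gpnmb and Lgals3 the KO points lie below those of the other groups of the same experiment, and for Csf1r the anestrus KO points lie above all DE, PE and E points.

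DE, PE and E were each compared with the same 4 anestrus KO libraries, so these comparisons are not independent. Each stage held more transcript of at least 5 of the 7 genes of the lysosomal group than the anestrus KO. In PE, 22 of 38 members were higher and 0 lower (57.9%, against 33.8% of 16944 genes, 17.5% higher and 16.3% lower). In DE 12 were higher and 1 lower (34.2%, against 25.1%, 13.5% higher and 11.6% lower), and in E 7 were higher and 1 lower (21.1%, against 18%, 8.98% higher and 8.98% lower), a share near that of all genes. Lists of other cell types differed from the anestrus KO too. Of 12 luteal genes, 7, 6 and 9 were higher in DE, PE and E, and of 8 endothelial genes 6, 3 and 5. Of 10 oocyte genes, 10, 10 and 5 were lower. Of 7 adipocyte genes, 1, 3 and 0 were higher. The adipocyte sum was 25.3 to 427 CPM in the anestrus KO, 168 to 1870 in DE, 366 to 1980 in PE and 63.1 to 561 in E. The luteal sum was 5640 to 13100 CPM in DE, 4720 to 11100 in PE and 7540 to 24800 in E against 3370 to 4400, and the oocyte sum 129 to 533, 196 to 329 and 389 to 565 against 879 to 1060 CPM. The part of these lists was not tested.

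Lgals3 was at 4.83, 1.64, 4 and 1.95 CPM in the anestrus KO. It was at 47.2, 25.2, 56.3 and 26.2 CPM in DE, at 35.8, 37.5, 54.7 and 103 in PE and at 27.9, 40.1, 26.3 and 46 in E, so that no cycling library reached the KO range. It was 12.4-fold, 18.5-fold and 11.2-fold higher (log2 3.63 ± 0.45, 4.21 ± 0.46 and 3.49 ± 0.45, adjusted p = 0.000171, 4.86e-05 and 0.000192). Gpnmb was at 6.72, 4.2, 3.67 and 6.05 CPM in the anestrus KO, at 35.7, 17.7, 107 and 13.7 in DE, at 21.5, 36.8, 233 and 79 in PE and at 38.4, 29.9, 33.2 and 53.3 in E. It was 8.46-fold, 17.9-fold and 7.49-fold higher without overlap, and DE replicate 3 and PE replicate 3 were far above the rest of their groups. In experiment 3, the share of all genes without such overlap was not counted.

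All 7 lysosomal genes rose in PE, 5 of 7 in DE and 5 of 7 in E. Ctss was 3.67-fold higher in PE, 2.14-fold in DE and 2.03-fold in E. Lyz2 passed in PE, 3.52-fold higher, and stood at 200 ± 60.2 CPM in DE and 221 ± 20.2 in E against 108 ± 13 (adjusted p = 0.0693 and 0.0505). Cd68 was 2.95-fold, 2.11-fold and 2.03-fold higher in PE, DE and E, and Mpeg1 2.64-fold, 1.89-fold and 2.04-fold. Clec7a, singled out in PE after its values were seen, was 4.17-fold, 3.63-fold and 3.37-fold higher, with DE replicate 4 inside the KO range.

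Of 8 lineage genes, 5 rose in PE, 3 in DE and 1 in E. Ptprc was at 25 ± 5.56 CPM in PE, 19.7 ± 4.42 in DE and 19.7 ± 2.31 in E against 13.5 ± 2.29 (adjusted p = 0.00407, 0.0488 and 0.0593). Laptm5, a lysosomal membrane gene of leukocytes, was 1.87-fold higher in PE and 1.63-fold in DE. Ms4a7 was 2.51-fold, 2.08-fold and 2.27-fold higher in PE, DE and E.

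Csf1r was the member that fell. It was at 69.3, 66.4, 72.1 and 70.8 CPM in the anestrus KO, at 52.5, 54.9, 38.6 and 44.6 in DE and at 45.4, 46.4, 43.5 and 51.3 in E, 1.46-fold and 1.49-fold lower (adjusted p = 0.0055 and 0.00409). PE, at 46.1, 58.6, 62.3 and 66 CPM, was also below every KO library but missed the threshold (adjusted p = 0.101). Adgre1 did not pass in any stage, at 23.2 ± 2.98, 28.3 ± 6.28 and 24.3 ± 4.62 CPM in DE, PE and E against 21.7 ± 2.08.

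Complement C1q rose in 2 of 3 genes in PE and 1 in DE. C1qb was 1.82-fold and 1.47-fold higher, while C1qa was at 50.8 ± 9.37 CPM in PE, 47.3 ± 8.64 in DE and 40.6 ± 4.2 in E against 39.3 ± 6.01 and did not pass. In PE, Trem2 and Fcer1g, the Fc receptor gamma chain, were 2.91-fold and 2.01-fold higher. No scavenger receptor passed in any stage: Mrc1 was at 49.7 ± 14.8 CPM in DE, 55.3 ± 2.9 in PE and 48.2 ± 11 in E against 70.1 ± 6.1 (adjusted p = 0.0653, 0.172 and 0.0603).

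Ccr2, the class II genes and oviduct genes are given side by side, because oviduct transcripts differed between libraries of experiment 3. The sum of 12 oviduct epithelium genes was 35.3, 72.3, 31.9 and 70.6 CPM in the anestrus KO, 7440, 4840, 23 and 3430 in DE, 3260, 5790, 4130 and 4960 in PE and 12.9, 20.3, 4780 and 18.8 in E. In the same order of replicates, Ccr2 was at 14.3, 8.83, 9.59 and 14 CPM in the anestrus KO, 38.5, 32.8, 9.98 and 26.2 in DE, 23.9, 24.6, 29.2 and 36.6 in PE and 14.3, 13.1, 27 and 19.8 in E. DE replicate 3 was the lowest and E replicate 3 the highest library of its group for Ccr2, as for the oviduct sum in DE and in E. Ccr2 was 2.45-fold higher in PE and 2.3-fold in DE (adjusted p = 0.013 and 0.0234), and DE replicate 3 alone, a single library, differed from the KO by -0.21 on the log2 scale. H2-Ab1 was at 112 ± 41.7 CPM in PE, 93.7 ± 45.1 in DE and 66.7 ± 9.66 in E against 54.6 ± 15.5, and passed in PE with overlapping groups (adjusted p = 0.026). With 1 library left out at a time, that call was made in 3 of 8 runs. The call of H2-Aa in PE was made in 2 of 8. Cd74, at 242 ± 72.3, 216 ± 127 and 160 ± 19.3 CPM against 135 ± 34.5, did not pass (adjusted p = 0.0617, 0.141 and 0.635). In PE, the oviduct content and the stage cannot be told apart, and in DE and E the part of oviduct RNA was not tested.

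**Figure D4:**
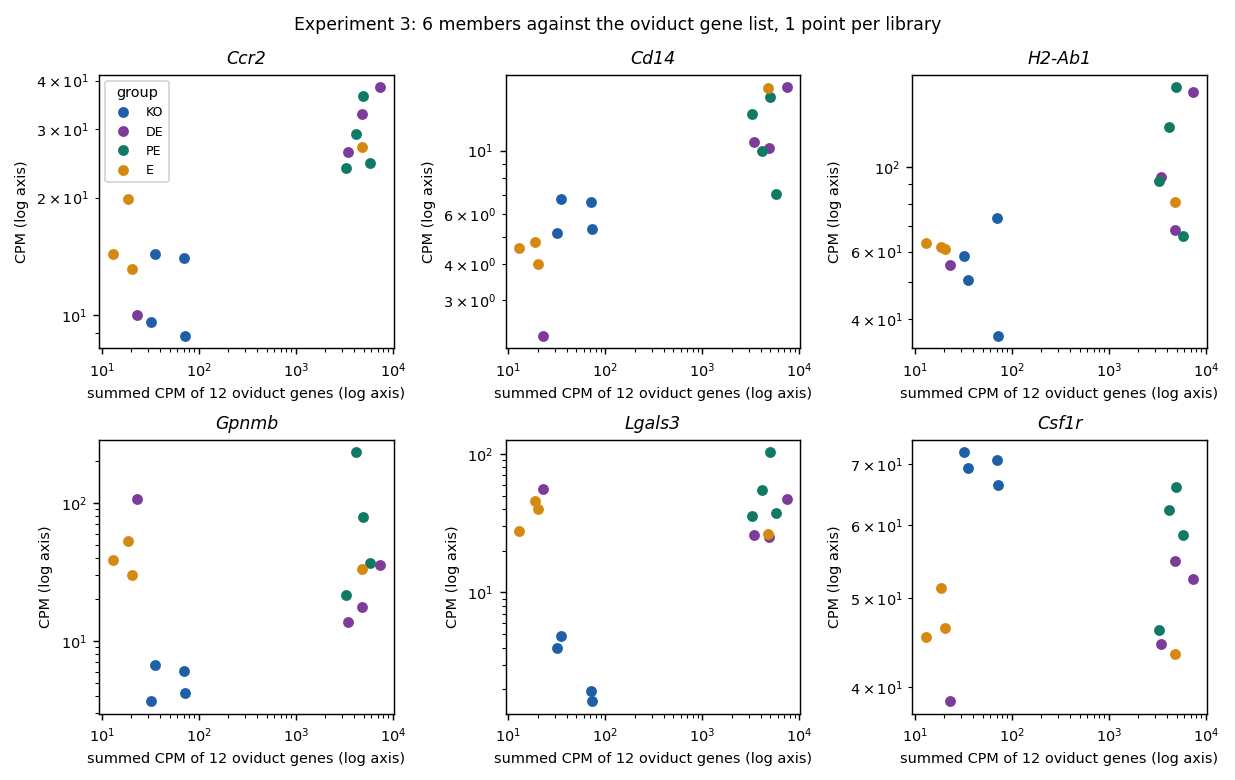
CPM of 6 members (vertical) against the summed CPM of 12 oviduct genes (horizontal) in the 16 libraries of experiment 3, coloured by group. Gpnmb and Lgals3 lie above the KO points in cycling libraries on both sides of the plot.

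In E, replicates 1, 2 and 4 had oviduct sums below every anestrus KO library. Without E replicate 3, 7 members still passed against the KO, with log2 differences of 3.64 for Lgals3 and 3.01 for Gpnmb, and Ctss was the member lost. The 8 calls in E fell to 2, 3 or 4 without KO replicate 2, 3 or 4 and to 5 without E replicate 2. Those in DE fell from 13 to 5 without KO replicate 2 or DE replicate 1, and to 6 without KO replicate 3.

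Between stages no member passed, and 0% of all genes did by edgeR. In PE against DE, E against PE and DE against E, 6, 13 and 3 of 38 members had an unadjusted p under 0.05. Over all 16944 genes tested, 407, 3170 and 1796 did. DESeq2 called 0, 1 (Laptm5) and 0 members, and 0, 337 and 10 of all genes. All 38 members had lower estimates in E than in PE, with a median of -0.52 on the log2 scale, against 0.01 over all genes. The 9 genes given throughout differed by 0.09 to 0.48 in PE against DE, by -0.74 to -0.20 in E against PE and by -0.07 to 0.54 in DE against E. With DE replicate 3 and E replicate 3 both left out, Cd14 and Ccr2 passed in E against PE and in DE against E, with Laptm5 and Aif1 also passing in the former and Folr2 in the latter. These 4 and 3 of 38 members (10.5% and 7.89%) compare with 15.5% and 16% of all genes, so the members' shares are below those of all genes. The libraries left had oviduct sums of 3430 to 7440 CPM in DE and 3260 to 5790 in PE, against 12.9 to 20.3 in E, so that stage and oviduct content cannot be told apart in these calls.

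Experiments 1, 2 and 3 share no library. Of the members higher in the rescue (19) and in PE (22), 17 were the same, 89.5% and 77.3% of each. Over all genes tested in both comparisons, 1066 were shared between 2633 and 2537, 40.5% and 42% of each. All 4 members lower in Fshb(-/-) than in WT were among those higher in the rescue (100% of 4, 21.1% of 19), where all genes gave 82.6% of 562 and 17.6% of 2640. Folr2 and Cx3cr1 were higher in the former and lower in the latter (100% of 2, 40% of 5), where all genes gave 84.6% of 764 and 24.1% of 2686. Most genes called in experiment 1 were thus called in the rescue in the reverse direction, members or not. The change from Fshb(-/-) to the rescue was tested directly against that from Fshb(-/-) to WT. This called 0 of 38 members by edgeR and 0 by DESeq2, where 0.153% of 18255 genes passed by edgeR. At an unadjusted p under 0.05 there were 0 members, against 1213 of the 18255 genes. Differences between both changes ran from -0.48 to 0.84 on the log2 scale over the members, and from -0.15 to 0.39 over the 9 genes given throughout.

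The summed CPM of the 7 lysosomal genes divided by that of the 6 scavenger receptors describes their balance in each library, with no test. It was 8.15 to 15.5 in WT, 9.48 to 14.5 in heterozygotes and 9.37 to 19.3 in the rescue. In libraries labelled Fshb(-/-) it was 2.01 to 4.35 in experiment 1 and 2.58 to 2.81 in experiment 2, and in the anestrus KO 1.83 to 2.96. DE, PE and E had ratios of 3.26 to 14.7, 3.98 to 13.7 and 5.56 to 9.2. In each experiment the KO range lay below those of the other groups. The members were chosen with earlier results known, so this separation restates the values above and adds no support. In experiment 1 the lysosomal sum was 138 to 279 CPM in Fshb(-/-) against 451 to 965 in WT. The scavenger receptor sum was 64.1 to 96.9 CPM against 52.7 to 62.1.

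**Figure D5:**
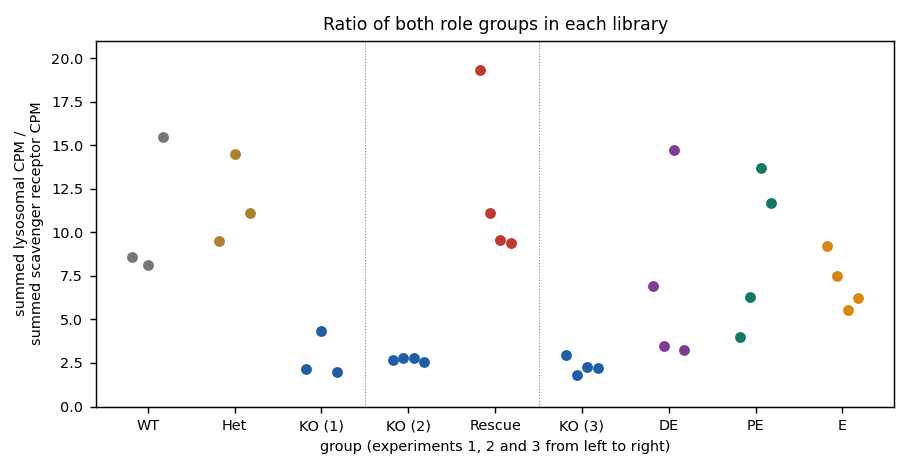
Ratio of the summed CPM of 7 lysosomal genes to that of 6 scavenger receptors in each library (points), by group. The KO groups lie between 1.83 and 4.35, and each lies below all other libraries of its experiment.

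Other genes of the pathway come from lists of related genes. Of 14 tested partners and regulators of MHC class II, 7 were higher in PE and 0 lower, and 2 were higher in the rescue and 0 lower. Of all genes, 17.5% were higher in PE and 15.8% in the rescue, so the count in the rescue is near that of all genes. In PE these included H2-DMb1, a subunit of the peptide exchanger H2-DM, at 13.4 ± 2.54 against 5.44 ± 1.02 CPM (SD, n = 4), and Ciita at 8.99 ± 2.13 against 4.05 ± 1.58. Lgmn, a lysosomal protease, was 2.74-fold higher in the rescue. Of 13 MHC class I presentation genes, 10 were higher in PE, 5 in the rescue, 3 in E and 0 in Fshb(-/-) against WT, where 17.5%, 15.8%, 8.98% and 4.53% of all genes were higher. The class I sum was 1190, 1500, 911 and 1450 CPM in DE and 1000, 1030, 1250 and 1300 in E. It was 1290 to 1660 CPM in PE and 951 to 1080 in the anestrus KO. For both lists, oviduct content and stage cannot be told apart in PE, and the part of oviduct RNA was not tested.

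Of 12 tested growth and recruitment signals, 7 were higher and 3 lower in the rescue, where 15.8% of all genes were higher and 16.2% lower. Ccl6 and Ccl9, chemokines made by myeloid cells, were 3.06-fold and 2.47-fold higher. The ligands of CSF1R, singled out after their values were seen, moved apart: Csf1 was at 23.3 ± 4.85 CPM in the rescue against 41.9 ± 2.05 and Il34 at 7.3 ± 1.37 against 4.19 ± 0.139, 1.8-fold lower and 1.74-fold higher. In E against the anestrus KO, Csf1 was 2.45-fold lower and Il34 2.57-fold higher. Of 16 tested efferocytosis and lipid genes, 8 were higher and 2 lower in the rescue, against the same shares of all genes, among them Abcg1, a cholesterol exporter, 2.8-fold higher, and Mertk, a receptor for dying cells, 1.79-fold lower.

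Defining markers of T and natural killer cells were low. Cd3e of T cells reached at most 1.74 CPM and Ncr1 of natural killer cells 0.809 over the 33 libraries. Of neutrophil genes, Ly6g was at 0 in 24 of 33 libraries and S100a8 at 0 in 10, with a highest value of 5.96 CPM, while Csf3r ran from 1.44 to 9.58 CPM and Ltf, which encodes lactotransferrin, from 0.0833 to 800. The neutrophil list summed to 805, 159, 4.65 and 301 CPM in DE and to 7.37, 5.35, 755 and 3.43 in E. It summed to 133 to 518 CPM in PE and 2.58 to 9.59 in the anestrus KO. DE replicate 3 was the lowest and E replicate 3 the highest library of its group, as for the oviduct sum. The part of oviduct RNA in this sum was not tested. Of the 11 genes of this list only 2 were tested, and 1 passed in DE and 1 in PE. Ltf, at up to 800 CPM, made up most of the highest sum, 805, while Ly6g and S100a9 reached at most 0.327 and 8 CPM. The sum is therefore not a measure of neutrophil number. A list of mast cell and eosinophil genes summed to 64.1 to 84.5 CPM in the rescue against 156 to 215 in Fshb(-/-). Of its 5 tested genes 4 were lower, where 16.2% of all genes were. It summed to 61.3 to 92.4 CPM in E against 159 to 221 in the anestrus KO, with 2 of 5 lower, where 8.98% of all genes were. Oocyte genes were lower in both comparisons as well, and which cells gave this sum was not tested. The part of these cells in the members' levels was not tested.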

How the data were processed

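RNA from 33 mouse ovary libraries was measured by sequencing. The deposited table gives estimated counts per gene; it was made by the authors with Salmon, DESeq2 and GRCm38 per the submitters' processing notes, with versions not given in the sources used here. Between 10.5% and 20.1% of the entries of a library were not whole, and counts were rounded. Symbols came from GENCODE M21 by gene identifier; 253 identifiers without a symbol held 0.0055% of counts. Tests used edgeR 4.0.16 (R 4.3.3), with a separate model for each experiment and a joint model of experiments 1 and 2 for the difference between their changes (TMM, filterByExpr, robust quasi-likelihood, Benjamini-Hochberg over all genes tested, threshold 0.05), tested on simulated data. CPM use TMM-scaled library sizes. DESeq2 1.42.0, other size factors, other filters, only the groups compared, a replicate block and leaving out libraries were alternatives. Libraries of a group always differed beyond counting noise: over 45 pairs, chi-square divided by its degrees of freedom was 5.3 to 67.7.

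The members, lists and motifs were chosen with earlier results of these data known. Values are printed for members that passed (the 12 with the smallest p where more did) and for 9 genes in every comparison; of other lists, up to 3 genes with the smallest p are named, and exceptions are stated. Promoters are from RefSeq; 9 members (Spi1, Csf1r, Adgre1, C1qa, Tyrobp, Cd14, Siglec1, Cd74 and H2-Ab1) were not searched, and proteins were not used here.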

Additional observations from a re-analysis of the deposited data

Results flagged for a closer look

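In the groups of 4 libraries, the highest or lowest value of each of the 38 members and of their summed CPM was compared with the others by Dixon's gap rule. Over 6 groups this gave 234 sets of 4 values, of which 8 (3.42%), all of single members, held a value far from the rest, where chance gives about 1 in 20. Replicate 1 of the Fshb(-/-) libraries of experiment 2 was far above the rest for Ptprc at 15.6 CPM (others 11.3 to 11.7), Adgre1 at 22.5 (15.1 to 16.3), Mrc1 at 63.4 (46.1 to 49) and Cd163 at 8.55 (3.32 to 4.07). That library was the highest of its group for 33 of the 38 members. E replicate 3 was low for Clec7a at 10.1 CPM (16.3 to 16.9) and high for Cd14 at 16.6 (4.01 to 4.81) and H2-Ab1 at 81.1 (60.9 to 63.1); its oviduct sum was 4780 CPM, against 12.9 to 20.3 in the other E libraries, and the part of oviduct RNA in these values was not tested. Replicate 1 of the anestrus KO was high for Mpeg1 at 67.4 CPM (45.4 to 49.1).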

How the results depend on the processing

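Counts of members called were within 1.5 times of the reported ones under every alternative run for the rescue and PE comparisons, and were 0 throughout for Het against WT, PE against DE and the difference between rescue and WT changes. For Fshb(-/-) against WT, 6 calls became 12 with DESeq2 and 3 without a filter on low counts, for Fshb(-/-) against Het 9 became 15 and 5, and for E against KO 8 became 14 and 4, or 15 when only the groups compared were fitted. E against PE went from 0 to 1 with DESeq2 and to 4 without DE replicate 3 and E replicate 3, which also took DE against E from 0 to 3. DE replicate 3 alone against the KO, an alternative chosen after seeing the data, gave 5 calls in place of 13; that arm is 1 library, assumed to vary like the other groups, and fewer samples alone lower such a count. Leaving out 1 library at a time gave 0 to 2, 1 to 11, 18 to 27, 5 to 15, 19 to 25 and 2 to 9 calls for Fshb(-/-) against WT, Fshb(-/-) against Het, the rescue, DE, PE and E against KO, and 0 to 1 for E against PE. Over all genes, DESeq2 called 341 in place of 15 for Het against WT, 2419 in place of 1355 for Fshb(-/-) against WT, 337 and 10 in place of 0 for E against PE and DE against E, and 134 in place of 28 for the difference between changes. Without DE replicate 3 and E replicate 3 the latter comparisons of stages gave 2656 and 2750. DE replicate 3 alone gave 317 in place of 4249. The causes were not tested.

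With the replicate number as a block, the calls for Fshb(-/-) against WT fell from 6 to 2, and over all genes those for Het against WT from 15 to 7 and for the difference between changes from 28 to 15; other counts moved less than 1.5 times. Same-numbered libraries deviated with correlations of -0.21 to 0.23 (-0.75 to -0.02 for DE against E), with at least 1 pair at or under 0.1 in each comparison, so the numbers were not taken as a pairing.

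Among the log2 differences whose sign turned, only Ccr2 in DE had passed the test. DE replicate 3 alone gave -0.15 for Adgre1, -0.05 for C1qa, -0.21 for Ccr2 and -0.12 for Cd74 against the KO. Without DE replicate 3 and E replicate 3, PE against DE gave -0.01 for Mrc1, -0.19 for Ccr2 and -0.03 for Cd74, and DE against E 0.15 for Ptprc and -0.20 for Cd68. Csf1r was at 0.00 in Fshb(-/-) against Het with DESeq2 or its size factors. Ptprc was at 0.01 in DE against E when only the groups compared were fitted, and in the difference between changes at 0.02 without a filter and 0.01 with a mean CPM of at least 1. Leaving out 1 library at a time also turned signs. In Fshb(-/-) against WT the ranges were Adgre1 -0.07 to 0.21, C1qa -0.22 to 0.06 and H2-Ab1 -0.14 to 0.11. In Het against WT the ranges were Ptprc -0.10 to 0.34, Csf1r -0.02 to 0.51, Adgre1 -0.21 to 0.29, C1qa -0.02 to 0.50, Cd68 -0.21 to 0.61, Cd74 -0.05 to 0.68 and H2-Ab1 -0.07 to 0.66. In Fshb(-/-) against Het the ranges were Csf1r -0.16 to 0.36, Adgre1 -0.23 to 0.26 and H2-Ab1 -0.67 to 0.06. In E against KO the ranges were C1qa -0.04 to 0.18. In PE against DE the ranges were Mrc1 -0.01 to 0.31, Ccr2 -0.19 to 0.32 and Cd74 -0.05 to 0.66. In DE against E the ranges were Ptprc -0.12 to 0.13, Csf1r -0.04 to 0.13, Adgre1 -0.16 to 0.07, Mrc1 -0.11 to 0.22, Cd68 -0.10 to 0.22 and Cd74 -0.06 to 0.65. In the difference between rescue and WT changes the ranges were Ptprc -0.29 to 0.16, Csf1r -0.09 to 0.23, Mrc1 -0.40 to 0.01, Cd68 -0.13 to 0.53 and Ccr2 -0.04 to 0.29. Without WT replicate 3 of experiment 1, Ptprc stood at 0.12 in that difference. At 10.1 to 23.7 M counts a library, low members such as Timd4 rest on few counts.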

Other observations

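The class II genes H2-Eb1 and H2-Aa, whose products are the beta chain of I-E and the alpha chain of I-A, kept a similar ratio in most libraries. The ratio of their CPM was 0.438 to 0.502 in the 3 heterozygous libraries and 0.795 to 1.21 in the other 30. H2-Ab1 over H2-Aa was 0.928 to 1.03 in the heterozygotes and 0.673 to 1.2 in the others. In the same MHC region, the pseudogene H2-T-ps was at 3.9 to 6.85 CPM in the heterozygotes, at 6.98 in E replicate 3 and at 0.191 to 1.66 in the other 29 libraries. H2-T10 was at 2.6 to 3.49 CPM in the heterozygotes, 14 in E replicate 3 and 0.583 to 3.17 in the others. Counts of MHC genes with close copies are uncertain. Strain is not given in the sources used here, and its part in these ratios and in the comparisons with the heterozygotes was not tested. These values were singled out after they were seen.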
